A study of Mus musculus with 7 samples.

Results

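The wild-type UHRF1 rescue was compared with the Uhrf1 knockout it was made from, using 3 of the 7 libraries of a mouse embryonic stem cell series: 1 library of the rescue and 2 libraries of the knockout. The libraries were chosen by their sample labels, and every cytosine site of the table that holds them was kept, 18189 sites in all. The parent line is J1, a male mouse embryonic stem cell line, and all cells were grown on gelatin with serum and leukemia inhibitory factor. The knockout is labelled Uhrf1-/-. The rescue is Uhrf1-/- cells transfected with a plasmid for human wild-type UHRF1 carrying flag and myc tags, selected with hygromycin and grown from a single picked colony. The rescue is thus 1 clone with a transgene of another species, and its difference from the knockout cannot be told apart from a difference between clones or from the effect of transfection and selection. The labels do not say whether the 2 knockout libraries came from separate cultures, so the gap between them may be technical. The 2 wild-type libraries are J1 cells with the endogenous gene. They are used as a reference level, to group sites and choose some regions, and for their replicate spread in the edgeR and limma tests. The fits of those tests also held 1 library of Uhrf1-/- cells with a mutant human UHRF1, called 3KR for 3 lysines changed to arginine. That library is set beside the rescue at the close of these results.

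UHRF1 binds DNA that carries methyl groups on the parental strand alone after replication, and brings the maintenance methyltransferase DNMT1 to it, so that the new strand is methylated in the same places. Without UHRF1, methylation is lost as cells divide, while de novo methyltransferases can still add some. In embryonic stem cells most CpG sites in gene bodies and between genes are methylated, and CpG islands at promoters are mostly free of methylation.

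Methylation was measured by reduced representation bisulfite sequencing, in which restriction fragments rich in CpG are sequenced after unmethylated cytosines have been converted. A level is the percent of reads at a site that stayed unconverted, and a difference is given in percentage points, rescue minus the mean of the 2 knockout libraries unless another pair is named. The sites summed to 615917 and 531050 reads in knockout libraries 1 and 2 and to 668870 reads in the rescue, with median depths of 14, 11 and 22 reads per site and at least 5 reads at every site. The 39 mitochondrial sites, which serve as a background of unconverted reads, stood at 0.792%, 1.02% and 0.922% in the same order. The table holds DNA methylation alone, so the loss of Uhrf1, the level of the transgene and the cell type were not checked against expression.

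Promoter sequences show which cytosines the levels refer to. Of the 559 sites that fell in RefSeq promoter windows, 558 lay on a CpG and 1 at a window's edge. Windows run from 250 bases before to 50 after a gene's start and were taken from RefSeq's GRCm38.p6, the assembly that mm10 represents. Among 44 windows where 3 or more sites reached 10 reads, 3 differed by at least 20 points, and these are shown with 1 CpG-rich window that stayed unmethylated and had many sites. Each is written 5′ to 3′ on the gene's strand, and capitals mark the measured CpGs.
Gm42326, chr4:134591954-134592253, plus strand: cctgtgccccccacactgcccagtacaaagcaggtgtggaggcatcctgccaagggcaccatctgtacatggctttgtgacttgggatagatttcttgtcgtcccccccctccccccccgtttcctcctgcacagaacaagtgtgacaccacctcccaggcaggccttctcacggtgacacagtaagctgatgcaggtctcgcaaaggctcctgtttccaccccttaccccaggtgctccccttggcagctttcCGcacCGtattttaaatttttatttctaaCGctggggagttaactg
Qrich2, chr11:116454298-116454597, minus strand: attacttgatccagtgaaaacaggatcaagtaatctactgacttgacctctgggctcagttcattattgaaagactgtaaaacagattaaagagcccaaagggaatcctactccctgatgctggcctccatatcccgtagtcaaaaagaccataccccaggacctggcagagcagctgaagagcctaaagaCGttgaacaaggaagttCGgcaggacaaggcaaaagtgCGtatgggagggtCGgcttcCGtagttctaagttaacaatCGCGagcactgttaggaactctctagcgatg
Gm42008, chr5:115907169-115907468, minus strand: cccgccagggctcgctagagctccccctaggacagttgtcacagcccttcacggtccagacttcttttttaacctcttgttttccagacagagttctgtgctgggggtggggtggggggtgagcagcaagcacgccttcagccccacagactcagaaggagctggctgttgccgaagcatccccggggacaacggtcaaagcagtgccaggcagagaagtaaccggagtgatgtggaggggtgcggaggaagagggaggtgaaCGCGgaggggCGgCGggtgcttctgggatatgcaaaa
Isg20l2, chr3:87930064-87930363, plus strand: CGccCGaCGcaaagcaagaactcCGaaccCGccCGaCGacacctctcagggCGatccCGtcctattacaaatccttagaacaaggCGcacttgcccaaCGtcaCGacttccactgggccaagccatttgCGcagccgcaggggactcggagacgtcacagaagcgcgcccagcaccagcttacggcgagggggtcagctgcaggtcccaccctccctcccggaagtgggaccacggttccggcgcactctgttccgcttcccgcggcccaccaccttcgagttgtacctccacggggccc

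The window of Gm42326, a predicted gene, holds 7 CpGs, of which the 3 measured ones are the last 3. The first stood at 40% and 14.3% in knockout libraries 1 and 2 and at 88.4% in the rescue, from 43 reads. The next went from 40% and 28.6% to 93.0%. The third, 33 bases after the start, was at 0% in both knockout libraries and at 73.3% in the rescue. All 3 CpGs were therefore higher in the rescue than in either knockout library.

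Across the 7 measured CpGs of Qrich2, which encodes a glutamine-rich protein, means were 6.64% and 11.9% in the knockout libraries and 46.1% in the rescue. Single CpGs of this window ran from 16.7% to 66.7% in the rescue, each from 10 to 12 reads. At Gm42008, also a predicted gene, 4 clustered CpGs near the 3′ end of the window stood at 41.0%, 28.9%, 20% and 15.8% in the rescue, and 3 of them were at 0% in both knockout libraries. The window of Isg20l2, an exonuclease gene, holds 29 CpGs, and 13 of them were measured. Means there were 1.71%, 0% and 1.03%, with 1 CpG that carried methylated reads in the rescue at 13.3%. That CpG also stood at 22.2% in knockout library 1.

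Windows with 11 or more CpGs had lower levels in the rescue than windows with fewer. In windows with 0 to 5 CpGs, 16 sites averaged 1.35% and 2.85% in the knockout libraries and 31.7% in the rescue. Sites in windows with 6 to 10 CpGs averaged 5.50% and 7.79% in the knockout libraries and 30.8% in the rescue, over 88 sites. With 11 to 20 CpGs the means were 1.17%, 1.46% and 2.59% over 224 sites. With 21 or more they were 0.481%, 0.566% and 0.710% over 231 sites, below the mitochondrial background.

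Over all sites the rescue stood far above both knockout libraries. Mean levels were 9.36% and 9.82% in the knockout (mean 9.59% ± 0.326, SD, n = 2) and 45.3% in the rescue, beside 48.3% and 50.02% in wild type. The rescue was 35.9 points above knockout library 1 and 35.4 above library 2, while the knockout libraries were 0.461 points apart. The median site was at 0% in both knockout libraries and at 50% in the rescue. An exact permutation test of 1 library against 2 cannot give a p under 0.33, so no p is given and sizes are set beside the gap between the knockout libraries.

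Sites were compared one by one where all 3 libraries had at least 10 reads, which left 8193 sites. At this depth 1 read is worth up to 10 points. In the rescue 4999 sites, 61% of those compared, were at least 20 points higher than the knockout mean, and 10 sites, 0.122%, were at least 20 points lower. The knockout libraries themselves were at least 20 points apart at 1318 of the same sites, 16.1%. Over the 9373 sites with 10 reads in both knockout libraries, library 2 was higher by that much at 788 sites, 8.41%, and lower at 708 sites, 7.55%, so the knockout gaps went both ways and those of the rescue mostly one way. The rescue was above both knockout libraries at 5902 sites and below both at 139. With 20 points required beyond each knockout library, 4688 sites were higher and 4 lower. The tests named next were counted only among sites that also met the 20-point rule. Tests that borrow the spread of the replicated groups called fewer: edgeR's quasi-likelihood test called 249 sites higher at an adjusted p under 0.05, of 7092 it could test, and limma called 1523.

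The shape of the distribution changed as well as its mean. Sites at exactly 0% made up 53.6% and 53.7% of the knockout libraries and 23.6% of the rescue. Sites between 20% and 80% made up 18.8% and 19.4% of the knockout and 43.9% of the rescue. Sites above 80% went from 0.134% and 0.159% to 20.99%. The rescue read fully methylated, at 100%, at 552 sites. At 90 sites both knockout libraries had no methylated read and the rescue had no unmethylated one. Of the 3165 sites at 0% in both knockout libraries, 761 were at 50% or more in the rescue and 1510 were again at 0%.

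**Figure D1:**
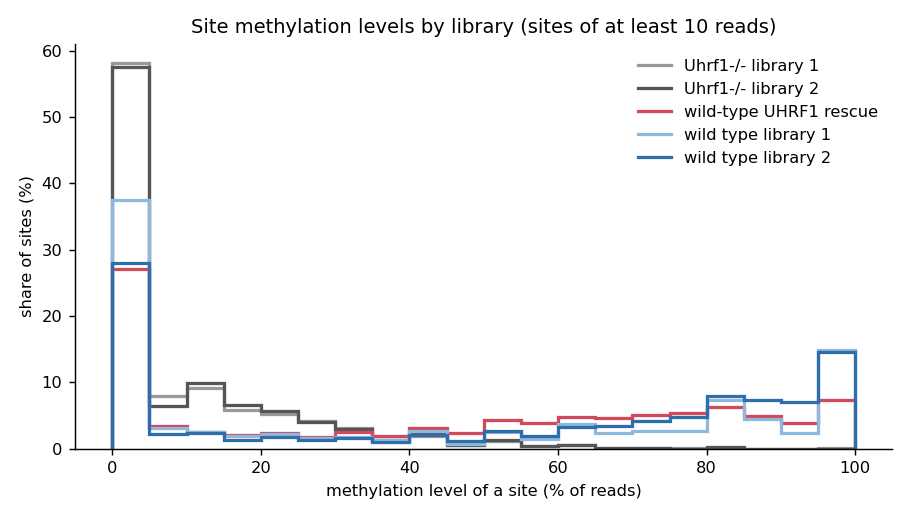
Share of sites (y axis, %) by methylation level in bins of 5 points (x axis, %), 1 line per library, for sites of at least 10 reads (in both knockout libraries and the rescue, and for each wild-type line in that library too). The knockout libraries pile up at the left end, while the rescue spreads over the middle of the scale and holds 20.99% of its sites above 80%.

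The difference was large wherever CpGs were sparse and small in CpG islands. Exon sites (1684) went from 10.97% and 11.5% in the knockout libraries to 54.8% in the rescue. Intron sites (6265) went from 11.9% and 12.4% to 55.4%. Intergenic sites (4591) went from 11.6% and 11.955% to 54.9%. The 3 differences were 43.6, 43.2 and 43.2 points. Promoter sites (5649) stood at 4.29% and 4.68% in the knockout and at 23.3% in the rescue, a difference of 18.9 points.

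Position relative to islands split these classes further. CpG island sites (1641) averaged 1.09%, 1.07% and 4.29% in knockout library 1, library 2 and the rescue, a difference of 3.20 points. Shores (3764 sites), the flanks of islands, averaged 3.42%, 3.92% and 22.0%. Sites outside both (12784) averaged 12.2%, 12.7% and 57.4%. Within promoters alone the difference was 1.12 points in islands, 11.1 in shores and 40.4 elsewhere. Islands inside introns, of which 150 sites were measured, differed by 13.8 points and those inside exons (110 sites) by 15.1 points. Intergenic islands (32 sites) differed by 0.648 points, at 2.04%, 1.76% and 2.55%. In none of these classes were the knockout libraries more than 1.13 points apart.

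**Figure D2:**
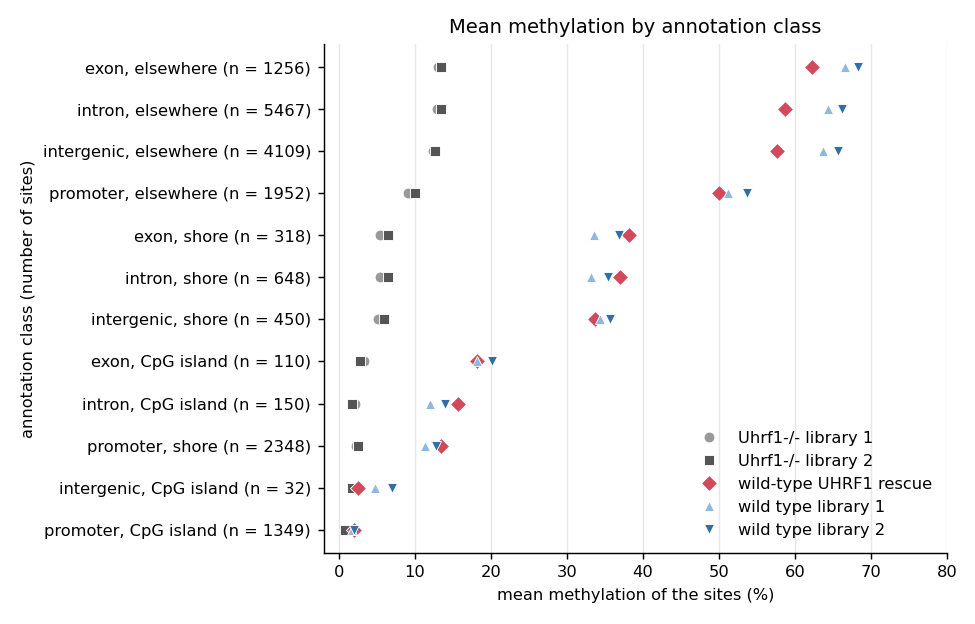
Mean methylation (x axis, %) of sites by annotation class (y axis, number of sites in brackets), 1 point per library; wild type is shown for reference. The rescue lies to the right of both knockout libraries in each class, from 0.648 points at intergenic islands to 49.0 points at exon sites away from islands.

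Around transcript starts the rescue had a valley of methylation. Its mean was 52.7% at sites from 5000 to 2000 bases upstream, 20.2% in the last 250 bases before the start, 16.7% in the first 250 bases after it and 53.7% from 2000 to 5000 bases downstream. The knockout libraries stood at 11.6% and 10.9%, 4.36% and 4.46%, 2.89% and 2.92%, and 10.9% and 11.1% over the same stretches. The difference thus ran from 41.5 points far upstream to 13.8 points just after the start. Intergenic sites farther from any listed start were as high: beyond 50000 bases the levels were 11.9%, 13.4% and 56.6%.

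**Figure D3:**
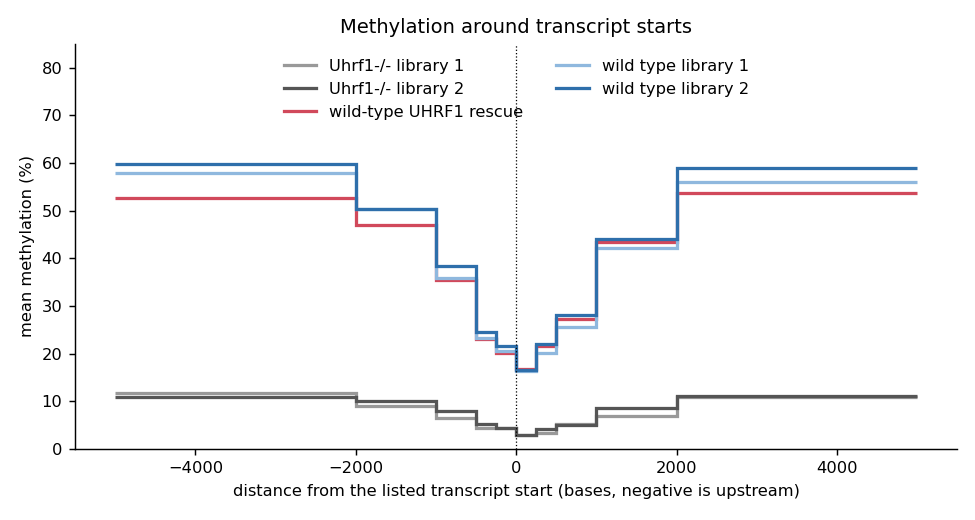
Mean methylation (y axis, %) by distance from the listed transcript start (x axis, bases, upstream negative), 1 line per library. The rescue dips to 16.7% just after the start and rises above 50% on both sides, while the knockout libraries stay under 12%.

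Each of the 19 autosomes was higher in the rescue than in both knockout libraries, by 26.9 points on chromosome 17 to 40.9 points on chromosome 13. The knockout libraries were at most 1.95 points apart on any autosome. On the X chromosome 99 sites averaged 9.53% and 9.03% in the knockout and 49.8% in the rescue, beside 42.4% and 42.8% in wild type.

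A set of 4 stretches of very high depth was set apart after the depths had been seen. Together they hold 270 sites with 50.96% and 52.9% of all reads in knockout libraries 1 and 2 and 20.6% of those in the rescue. At chr17:39843317-39848709, a stretch with the ribosomal RNA-related loci Rn18s-rs5 and AY036118, 208 sites averaged 1.16%, 1.17% and 5.22%. At chr2:98662265-98667255, with no RefSeq gene, 46 sites averaged 9.50%, 9.35% and 67.2%. The 12 sites at chr6:3201442-3201557 averaged 1.01%, 1.15% and 5.71%, and the 4 at chr9:35305418-35305522 averaged 6.80%, 7.11% and 80.6%. All of them were higher on average in the rescue, by 4.06 to 73.6 points. Without these stretches and the mitochondrial sites, the mean difference over all other sites was 36.1 points.

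Sites grouped by their mean level in wild type show how the rescue followed that level. Where wild type had no methylated read, 4425 sites averaged 1.54% and 1.64% in the knockout libraries and 4.87% in the rescue. Where wild type was above 40% and up to 60%, 1556 sites averaged 9.29% and 9.28% against 54.7%. Where it was 100%, 1746 sites averaged 18.9% and 20.1% against 77.5%. The difference went from 3.28 points in the first of the 7 groups to 58.0 in the last. The groups were made from the wild-type reads, so wild-type values within them are not compared with the rescue.

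**Figure D4:**
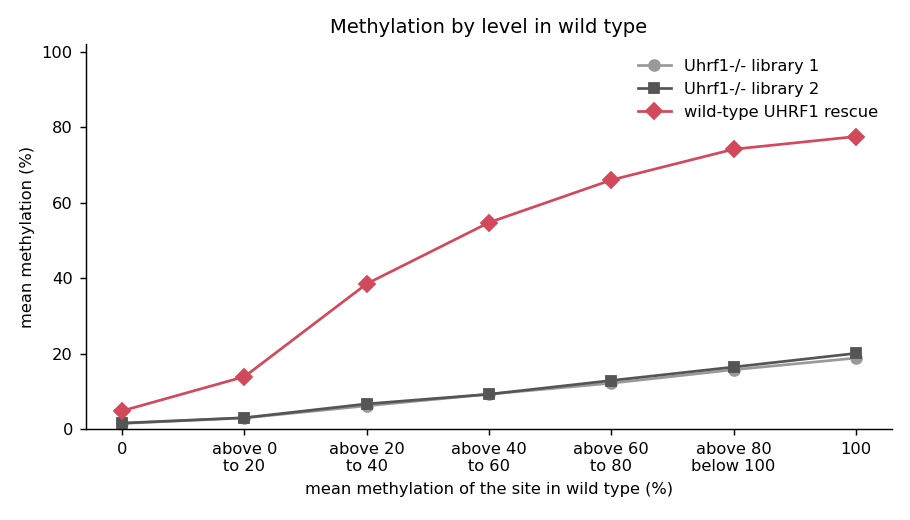
Mean methylation (y axis, %) of the knockout libraries and the rescue for sites grouped by mean level in wild type (x axis, %). The rescue climbs from 4.87% to 77.5% across the groups and the knockout libraries from under 2% to 18.9% and 20.1%.

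At 952 sites both wild-type libraries were at 80% or more, with 10 reads in all 5 libraries. These averaged 16.5% and 17.2% in the knockout and 75.5% in the rescue. The rescue was at 80% or more at 438 of them, between 60% and 80% at 348, between 40% and 60% at 126, between 20% and 40% at 31 and below 20% at 9. The last group includes single sites listed with Rufy1 (6 of 34 reads methylated), Uchl1os (2 of 16 reads) and Myrip, a myosin-linked Rab effector (0 of 12 reads), named after their values were seen. At 1078 sites neither wild-type library had a methylated read, and 804 of these also had none in the rescue. The rescue was at 60% or more at 15 of them, among which were sites listed with Wnt9a, a Wnt ligand (93.3%, 28 of 30 reads), Irf2bp1 (82.4%, 28 of 34 reads) and Ypel2 (77.6%, 66 of 85 reads), again named after their values were seen. Knockout libraries 1 and 2 stood at 19.05% and 19.35% at the Wnt9a site and at 17.4% and 0% at the Irf2bp1 site. Both were at 0% at the Ypel2 site. Both sets of sites were chosen by their wild-type reads, which favours a gap between wild type and the rescue. How far the rescue lay from the wild-type level was therefore not judged from them.

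Sites that kept methylation in the knockout were also higher in the rescue. At the 711 sites where knockout library 1 had at least 40% and 10 reads, it averaged 51.2%, library 2 averaged 27.5% and the rescue 76.2%. Chosen by library 2 instead, 652 sites averaged 51.02% in it, 27.0% in library 1 and 76.5% in the rescue. In each choice the library not used to choose lay far below the other, and the rescue stood 48.7 and 49.5 points above that library.

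Both strands of a CpG were measured at 92 CpGs, 61 of them on chromosome 17 and 9 in mitochondrial DNA. Their median depth was 1013.5 and 759.5 reads in knockout libraries 1 and 2 and 193 in the rescue. Over all sites it was 14, 11 and 22 reads, so these CpGs do not stand for the genome. In the rescue both strands were above 50% at 15 CpGs and 1 strand alone at 5. In the knockout libraries no CpG had both strands above 50%, and 1 and 2 CpGs had 1 strand above it. Levels of the 2 strands across these 92 CpGs had a Pearson r of 0.906 in the rescue, and of 0.378 and 0.370 in the knockout libraries. Neighbouring sites, which often share reads, were also alike: for 4732 pairs 51 to 100 bases apart r was 0.814 in the rescue, 0.380 in library 1 and 0.315 in library 2. For 5447 pairs more than 500 and up to 2000 bases apart it was 0.591, 0.248 and 0.343. The fall with distance was not steady. In the next shorter range, up to 500 bases, 2140 pairs had r of 0.898, 0.388 and 0.493. That was the highest r of any range in the rescue. These values across sites are descriptions, and the narrow range of levels in the knockout limits its r.

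Promoters were compared where 3 or more of their sites had 10 reads in all 3 libraries, which left 386. A promoter is the set of promoter sites listed with 1 gene, or with 1 transcript where no gene was named. Sets were split at gaps of more than 2000 bases. The 386 include regions of mitochondrial DNA and of the very deep stretches on chromosomes 17 and 2. The mean over sites was at least 20 points higher in the rescue at 131 promoters, 33.9%, and at least 20 points lower at 0 promoters, 0%. The knockout libraries were that far apart at 7 promoters, 1.81%. The median promoter was at 4.91% in the rescue and differed by 4.06 points, and 42 promoters differed by 60 points or more. The promoters nearest the threshold differed by 20.2 and 19.8 points. Of 71 promoters whose sites all lay in islands, 3 met the 20-point rule, against 90 of 130 whose sites all lay outside islands and shores. Without the rule on sites and with 5 reads a site, 1505 promoters were covered, of which 44.3% were higher and 0.133% lower.

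The largest difference was at 3 sites at chr5:114364044-114364092, listed with a start inside Myo1h, which encodes an unconventional myosin, in a stretch shared with Kctd10 on the opposite strand, the gene of a cullin ubiquitin ligase adaptor. Levels were 4.60% and 0% in the knockout libraries and 100% in the rescue, where all 38 reads were methylated (95% Wilson interval 90.8% to 100%). Upstream of Ccl22, the gene of a chemokine that draws T cells, 4 sites at chr8:94745037-94745125 stood at 0%, 3.12% and 85.4% (82 of 96 reads, interval 77.0% to 91.1%). Intervals here cover counting error only, and reads of neighbouring sites can be the same reads. In both regions the rescue lay far from the 2 knockout values.

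In the span of Mtus1, the gene of a microtubule-associated protein, 4 sites at chr8:40999490-40999560 had no methylated read in 90 and 40 knockout reads and averaged 75.9% in the rescue (132 reads). At 7 sites in the span of Med24, a subunit of the Mediator complex (chr11:98708730-98708812), levels were 20.4%, 12.7% and 92.1%. Some methylation was thus left in the knockout at Med24, and none was seen at Mtus1.

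Starts inside Zfp777, a zinc finger gene, and Trrap, a scaffold of histone acetyltransferase complexes, were close to this range. Zfp777 (chr6:48044610-48044673, 5 sites) stood at 10.5%, 8.41% and 82.0%. Trrap (chr5:144805576-144805647, 3 sites) stood at 12.5%, 15.6% and 86.4%. The start of 9330162012Rik, which overlaps Aldh5a1, a gene of GABA breakdown, had 4 shore sites (chr13:24936537-24936616) at 5.00%, 9.55% and 85.7%. Of the 12 promoters with the largest differences it is the 1 in a shore, and the other 11 lay outside islands and shores.

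In the span of Galnt12, a glycosyltransferase gene, 3 sites at chr4:47100439-47100481 were at 17.5%, 24.3% and 100%. In the span of Gm5320, 4 sites at chr7:4909468-4909582 were at 0%, 5.56% and 87.5%. In that of Hmgb1-rs17, 6 sites at chr8:33484418-33484504 were at 2.17%, 9.44% and 83.8%. In these 3 cases, and at Mtus1 and Med24, the listed start was not matched to a gene on its strand. At chr8:104224353-104224412, with no RefSeq gene, the knockout libraries differed, at 0% and 32.1%, and the rescue was at 89.7%. That region is 89.7 points above library 1 and 57.5 above library 2.

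Promoters that are methylated in wild type were also ranked from the other end. Among 50 promoters with a wild-type mean of at least 50%, the lowest difference was at Gm30191 (chr4:134247509-134247626, 4 shore sites), at 2.08% and 10.3% in the knockout and 24.0% in the rescue. Lss, the gene of lanosterol synthase in cholesterol synthesis, had 3 sites at 31.5%, 27.3% and 50% (chr10:76541084-76541162). Within Atf7ip, which encodes a partner of the histone methyltransferase SETDB1, 7 shore sites at chr6:136519407-136519489 were at 1.30%, 6.67% and 25.5%. At each of the 3 the rescue was above both knockout libraries.

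Just downstream of the Tmem255b start, 3 sites (chr8:13435489-13435509) were at 3.92%, 4.76% and 33.6%. In the span of Gm5510 (chr19:6153387-6153493) 4 sites were at 26.9%, 22.2% and 55.2%. In Gm5563, which overlaps Tbx5, a heart and forelimb transcription factor gene, 6 sites (chr5:119830956-119831089) were at 16.8%, 9.11% and 44.0%, from 802 reads in the rescue. The 6 lowest differences among the 50 ranked promoters ran from 17.9 to 31.0 points. Even the low end exceeded the gap between the knockout libraries at these 6, which was at most 8.18 points. Promoters with fewer wild-type reads were not ranked. Top2a was among these, with a wild-type mean of 77.0%, and stood at 33.3%, 9.89% and 49.2%.

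**Figure D5:**
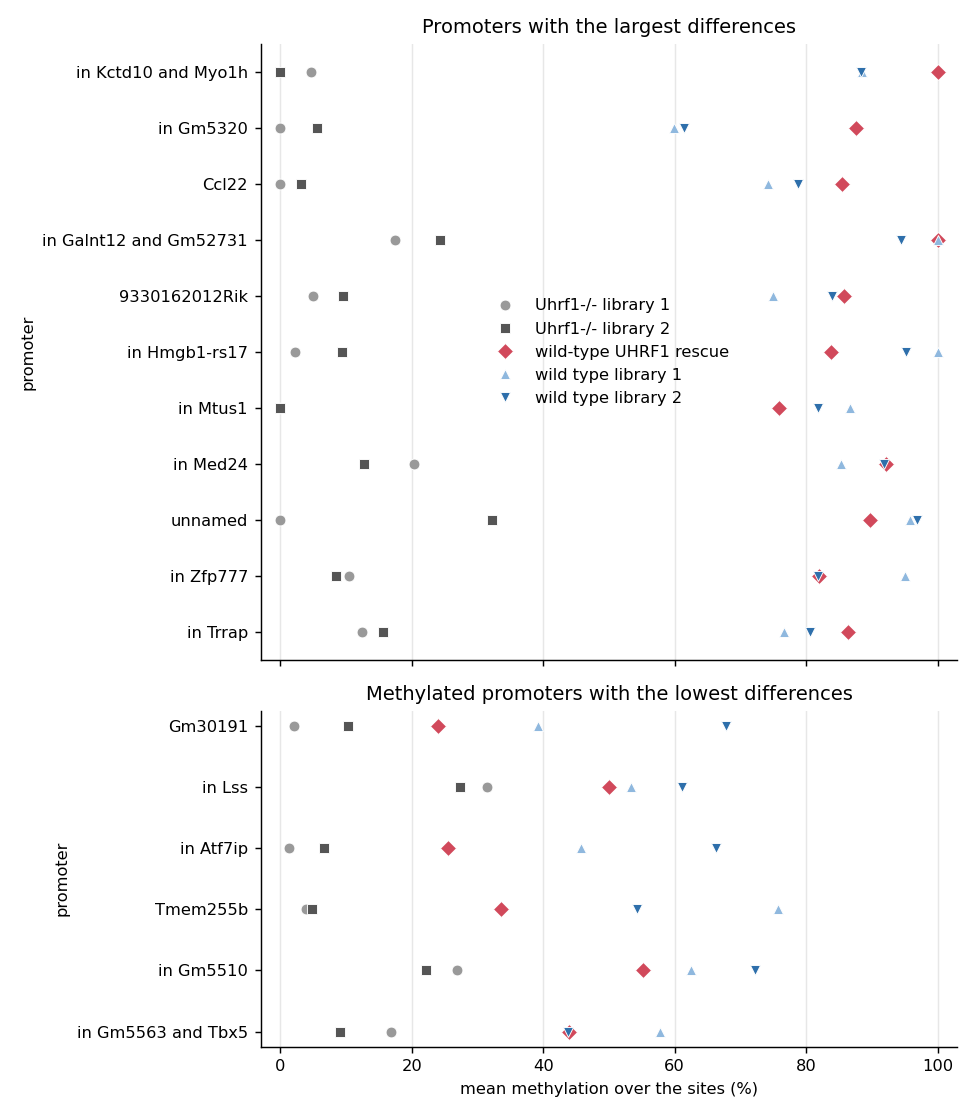
Mean methylation over sites (x axis, %) of single promoters, 1 point per library. The top panel holds 11 of the 12 promoters with the largest differences. The bottom panel holds the 6 with the lowest among the 50 ranked promoters methylated in wild type. A label with "in" names the RefSeq gene spanning the sites. The rescue is at 75.9% to 100% in the top panel and at 24.0% to 55.2% in the bottom one.

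Runs of at least 5 sites outside promoters, each within 100 bases of the next, gave 193 clusters. Of these 147, 76.2%, were at least 20 points higher in the rescue and 0 at least 20 points lower, with a median difference of 48.6 points. The largest was in an intron of Bcas3 (chr11:85615287-85615360, 5 sites), at 6.50% and 10.4% in the knockout and 100% in the rescue, where all 96 reads were methylated (interval 96.2% to 100%). An intron of Ttc7b, which encodes a partner of a phosphatidylinositol kinase (chr12:100345562-100345643), was at 0%, 11.05% and 95.5%. An intron of Tll2, a tolloid-like metalloprotease gene (chr19:41102047-41102164), was at 0%, 8.79% and 93.8%.

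A CpG island inside Camta1, a transcription factor gene (chr4:151485929-151486051, 10 sites), was at 2.76%, 5.79% and 88.5% (415 reads in the rescue, interval 84.998% to 91.2%). It is the only island among the 12 clusters named by the ranking. Intergenic clusters at chr2:12043380-12043497 and chr4:145458184-145458256, of 7 sites each, were at 8.40%, 10.9% and 94.2%, and at 16.7%, 0% and 91.8%.

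At the low end, clusters were ranked among 48 with a wild-type mean of at least 50%. These also had at least 10 reads per site in both wild-type libraries. At the 6 with the lowest differences, the rescue stayed below 57%. Near Cyp11a1, the gene of the first enzyme of steroid synthesis, 5 intergenic sites (chr9:57990990-57991114) were at 3.64% and 33.9% in the knockout and 35.2% in the rescue. The rescue there is 31.5 points above library 1 and 1.32 points above library 2, so its difference of 16.4 points depends on which knockout library is used. An intron of Llgl1, a cell polarity gene (chr11:60710592-60710689, 5 sites), was at 36.9%, 27.5% and 56.4%, and upstream of Prss35, 6 sites (chr9:86735074-86735212) were at 13.3%, 12.1% and 43.3%. Introns of Gse1 (26.7%, 17.2% and 52.6%) and Crocc2 (16.6%, 11.4% and 47.2%) were also among the lowest.

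Germline genes, many of which are silenced by promoter methylation outside the germ line, had 4 measured promoters of 38 listed genes, and 2 of them were at least 20 points higher, where 44.3% of all promoters were. Meioc, a meiosis regulator, had 9 shore sites (chr11:102664693-102664863) at 15.0%, 11.2% and 63.7%. Sycp1, of the synaptonemal complex, had 4 sites (chr3:102936699-102936884) at 0%, 3.33% and 38.8%. The promoter of Smc1b, a meiotic cohesin subunit, was at 0% in all 3 libraries over 7 island sites, and the 92 rescue reads allow up to 4.01% by the Wilson interval. Tdrd1, a gene of the piRNA pathway, had 1 promoter site, at 0%, 14.3% and 0%. Outside promoters, 6 sites listed with Dazl, a germ-cell RNA-binding protein gene, averaged 22.2%, 36.7% and 77.1%, and 2 with Tdrd9 averaged 21.4%, 8.33% and 95.5%.

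Imprinted genes, of which 1 parental copy is silenced, had 4 measured promoters of 42 listed genes, and 2 were higher by the rule, beside 44.3% of all promoters. Mest, a mesoderm-expressed imprinted gene (3 sites), was at 11.1%, 23.8% and 55.7%. At a start inside Jade1 (3 sites) levels were 0%, 6.67% and 58.8%. Starts inside Gnas (1 site, 2 of 13 rescue reads methylated) and Inpp5f (4 island sites) stood at 0%, 0% and 15.4%, and at 0% in all 3. At Grb10, a growth-limiting imprinted gene, 4 sites outside the promoter averaged 5.32%, 14.6% and 74.4%. At Mkrn3, 2 sites outside the promoter averaged 0%, 0% and 11.4%. None of these sites was checked for lying in an imprinting control region, and reads were not split by parent.

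Developmental transcription factors had 7 measured promoters of 58 listed genes, and 2 were higher by the rule, again beside 44.3% of all promoters. Ebf3 (6 sites outside islands) was at 11.1%, 48.8% and 84.2%, a case where the knockout libraries were far apart. Hoxa9 had 1 site at 0%, 0% and 33.3% from 12 rescue reads. Gata2 was at 0%, 2.47% and 14.8%, Neurog1 at 0%, 0% and 10.6%, Pax7 at 1.90%, 1.43% and 3.81%, and Olig2 at 0%, 1.11% and 1.85%. Lhx2 had no methylated read among 660 in the rescue. Levels were thus under 20% in all 3 libraries at 5 of the 7 promoters.

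Pluripotency genes had 2 measured promoters of 26 listed genes, and Sox2 and Nr5a2, both regulators of the stem cell state, were at 0% in all 3 libraries (82 and 11 rescue reads). At 4 sites listed with Zfp42, a stem cell marker gene, levels were 3.57%, 0% and 25%. Of 26 genes of the methylation machinery none had a measured promoter, and 4 had sites elsewhere. Dnmt3a, a de novo methyltransferase gene, had 1 site at 0%, 10% and 57.1%, and Setdb1 had 1 at 0%, 0% and 29.2%. The 2 sites of Ehmt1 averaged 20%, 33.3% and 34.0%, and the 1 site of Uhrf2, the paralogue of Uhrf1, was at 0%, 28.6% and 42.9%. Trophoblast and two-cell lists had no measured site. Of 12 fibroblast genes, kept as markers of other cells, Col3a1 had 1 site, at 0%, 75% and 41.7%.

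Gene families were described over all sites listed with their members, beside 2138 of 3040 genes, 70.3%, that were at least 20 points higher, and 8 genes, 0.263%, lower. Solute carriers were higher in 42 of 56 genes, with a median difference of 40.2 points. Zinc finger genes were higher in 33 of 53 and channel genes in 18 of 30. G protein-coupled receptors were higher in 12 of 13 genes and ubiquitin-specific proteases in 3 of 8. Collagens were higher in 7 of 11 genes, lysine methyltransferases and demethylases in 6 of 8 and protocadherins in 2 of 2. Families also differed in the share of their sites that lie in promoters: 0% for protocadherins, 18.2% for the receptors, 20% for collagens, 33.3% for the lysine enzymes, 33.9% for solute carriers, 49.2% for channels, 50% for zinc finger genes and 75% for the proteases. The part of that share in the counts was not tested.

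Single members show the span within families. Slc25a38, a mitochondrial glycine carrier gene, went from 5.20% and 10.1% to 93.5% over 8 sites. Col11a2, a cartilage collagen gene, went from 7.01% and 10.7% to 80.5% over 7 sites. Setd1a, a histone H3 lysine methyltransferase gene, went from 10.7% and 15.3% to 79.9% over 9 sites (936 reads in the rescue). Kcnh5, a potassium channel gene, was at 4.76%, 2.86% and 0% over 7 promoter sites, and Usp30, a mitochondrial deubiquitinase gene, was at 0% in all 3 libraries over 5. These 5 genes were named after their values were seen.

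Sites lower in the rescue were few and scattered. The 10 lower sites lay on 7 chromosomes, and 5 of them were promoter sites. The largest, listed with 2810405F15Rik, was at 57.1% in each knockout library (14 reads each) and at 14.8% in the rescue (4 of 27 reads). A site in a Vrtn promoter stood at 13.3%, 57.1% and 12.5%, so it lay close to library 1 and far below library 2. An Elfn2 exon site in an island was at 18.2%, 25% and 0%, and a Pde4dip promoter site at 26.7%, 20% and 0% (36 rescue reads). Over its 3 promoter sites Pde4dip had the lowest difference of the 386 promoters, -11.1 points.

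The other rescue line is Uhrf1-/- cells with the 3KR mutant of human UHRF1 (1 library), and it shares the knockout controls. Over the 18189 sites the wild-type rescue stood at 45.3% and the 3KR rescue at 15.2%. At Ccl22 the pair stood at 85.4% and 3.57%, at Med24 at 92.1% and 43.7%, and at the Camta1 island at 88.5% and 0%. At the Myo1h region it was 100% and 58.3%, and at the chr2:12043380-12043497 cluster 94.2% and 54.8%. These regions were ranked by the wild-type rescue's difference from the knockout, which favours a gap to the 3KR rescue. Both rescue lines are single libraries of single colonies, so the gap between them was not tested.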

How the data were processed

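Genomic DNA of J1 cells was studied by double-enzyme bisulfite sequencing. The submitters' processing notes name BSMAP 2.73, Trim Galore and cutadapt and the build mm10. For settings and the methylation caller, nothing is stated in the sources used here. The authors deposited read counts per site (total, methylated, unmethylated) and the fraction methylated, which was recomputed from the counts as a percent and was the same.

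Groups came from sample titles. Means are unweighted over sites. Sites needed 10 reads in the 3 libraries and 20 points to be called, and promoters 3 such sites. Named regions were the 12 promoters and 6 clusters with the largest differences, the 6 of each with the lowest at a wild-type level of at least 50%, and every measured promoter of the lists (1 promoter and 1 cluster are not reported here); members and lists were chosen with earlier results of these data known. Starts were named by RefSeq genes on the same strand within 100 bases or spanning them; other regions by the gene spanning the sites. Alternatives used edgeR 4.0.16, limma 3.58.1 (R 4.3.3, tested on simulated data) and Fisher's exact test (two-sided), Benjamini-Hochberg adjusted, besides other depths, thresholds and averages. Python 3.11.15, numpy 2.4.6, pandas 2.3.3, scipy 1.17.1 and matplotlib 3.10.9 were used. Intervals are 95% Wilson intervals. The Mof knockdown table was not used here.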

Additional observations from a re-analysis of the deposited data

How the results depend on the processing

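No paired analysis was possible because the rescue has 1 library and shares no replicate number with a pair of knockout libraries. The direction of the mean difference, over all sites and in each class, held under every alternative run, while sizes varied. Over all sites it was 37.5 points with reads pooled, 24.6 at 20 reads, 38.4 with neighbouring sites averaged first and 36.1 without the stretches of very high depth, an alternative chosen after seeing the data. With reads pooled, at 10 reads, at 20 reads and averaged first, exons gave 45.4, 44.3, 34.4 and 44.8 points, introns 44.8, 44.5, 37.5 and 42.8, intergenic sites 40.8, 43.7, 34.6 and 41.9, promoters 26.1, 18.5, 12.7 and 24.4, and sites outside islands and shores 45.5, 46.0, 38.7 and 43.4. Pooled, at 20 reads and averaged first, islands gave 2.75, 1.15 and 2.85 and shores 17.8, 11.7 and 21.7. Without the deep stretches promoters gave 19.2 and islands 3.35.

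Sites higher in the rescue numbered 11041 of 18189 at 5 reads and 470 of 1080 at 20 reads, 249 by edgeR (adjusted p under 0.05) and 1523 by limma. Sites lower numbered 81 at 5 reads and 0 at 20 reads, 70 at a 10-point and 1 at a 40-point threshold, 4 beyond each knockout library, 3 by Fisher's exact test, 1 by limma and 0 by edgeR, with 51 to 60 when 1 knockout library was left out. At an unadjusted p under 0.05 edgeR had 2408 sites higher and 9 lower. These unadjusted counts carry no 20-point rule, unlike the adjusted counts of each test. Thresholds of 10 and 40 points left 5461 and 3895 sites higher by the size rule alone. Without a minimum of sites, 44.3% of 1505 promoters were higher and 2 lower, against 33.9% of 386. The count itself rose by more than 1.5 times. Fewer or more sites enter at other depths; other causes of these shifts were not tested. The 30 named regions stayed above the knockout under each alternative. Those with the largest differences were picked from these same data, so for them this is not a check. The alternative with 5 reads a site changed none of the values. The region near Cyp11a1 alone moved by more than 1.5 times when either knockout library was left out. Depth limits single sites: at 10 reads 1 read is worth 10 points.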
